A study of Mus musculus with 8 samples.

Results

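The striated muscle genes Tnnc2, Tpm1, Smpx, Mylk4, Cox7a1, Cox8b, Pgam2, Mstn, Asb5 and Apobec2, are described in mouse ear skin with and without corneodesmosin, a secreted protein of the junctions between the outermost epidermal cells. They were picked by name from the authors' deposited table of 3411 probe sets that differed between genotypes, 10 genes among 3024 with a symbol in that table and 33793 probe sets on the array. All 10 lay among the 770 genes listed as lower, so their direction is what chose them and is given here as a description, with no test. Membership in that table required an adjusted p under 0.05 and a log2 difference of at least 0.5 either way. The member nearest to the second limit was Asb5, with a difference of -0.61 log2 units, and of the listed muscle genes that are not members Eya4 came nearest to it, at -0.51. Probe sets just outside the limits carry no gene name in the sources used here.

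Ear skin RNA came from 4 KO and 4 WT mice on the C57B/6J background, each hybridised to its own array. KO mice were KRT14-CreERT2(tg/0)/Cdsnfl/fl and WT mice KRT14-CreERT2(tg/0)/Cdsnwt/wt, so both carried the tamoxifen-inducible recombinase, and both received 4-hydroxytamoxifen on the ears at 100 µg per ear and day for up to 15 days, from 7 to 12 weeks of age. The KRT14 promoter is one of basal keratinocytes, and muscle fibres are not among the cells it is known for. Values are log2 intensities, and a difference of -1 means that KO read at 50 percent of WT. Cdsn read 8.89 to 10.31 in KO and 11.76 to 12.13 in WT, without overlap. The first principal component held 50.4% of the variance, and on it WT replicate 1, at 2.60, lay beside KO replicates 3 and 4, at -4.47 and -6.84, while the other WT arrays lay at 43.5 to 50.5 and KO replicates 1 and 2 at -75.3 and -57.8. WT replicate 1 therefore stood apart from its group, and KO replicates 1 and 2 stood apart from KO replicates 3 and 4. Differences without WT replicate 1 are given for some members, and its removal made the fall of each member larger. Ranges over each left-out array, KO or WT, are given below.

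The mouse ear contains thin striated muscles, so RNA from ear skin can include that of muscle fibres. The muscle content of these samples was not measured. In a fibre, calcium binds troponin, tropomyosin moves on the actin filament and myosin pulls. Mitochondrial respiration and glycolysis supply the ATP, partly through subunits and enzymes that exist in muscle-specific forms. Myostatin, secreted by muscle, limits the growth of the fibres. In bulk tissue, fewer fibres, less RNA per fibre and a larger share of RNA from other cells cannot be told apart.

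The label of striated muscle was checked against defining markers. Of 12 markers of skeletal muscle fibres (Acta1, Ckm, Myh1, Myh2, Myh4, Mylpf, Tnni2, Tnnt3, Actn3, Mb, Atp2a1 and Ryr1), 0 were in the authors' deposited table. Either they missed the criteria of the table or no probe set of theirs was tested. Names come from that table alone, so the levels of these markers were not analysed here. The check therefore gave the label no support, and the label rests on what is known of the members. The members themselves are a mixture: Tnnc2 belongs to fast skeletal muscle, Pgam2 and Smpx to skeletal and cardiac muscle, whereas Tpm1 also has forms in smooth muscle and non-muscle cells, and Cox7a1 and Cox8b are made in brown fat as well. Of 5 brown fat markers (Ucp1, Cidea, Elovl3, Dio2 and Prdm16), 0 were in the table.

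Upstream sequence of 4 members is printed because it holds letters that muscle transcription factors are known to bind. Each line gives the 200 bases that end just before the annotated transcript start, from RefSeq on GRCm38.p6 and in the direction of transcription, with matches in capitals. The motifs searched on both strands were the E-boxes CAGCTG and CAGGTG, bound by factors such as MyoD, the MCAT element CATTCC, bound by TEAD factors, and the MEF2 and CArG boxes, which hold a run of A and T. The MEF2 box was searched in a strict form, with C first and G last, and in a wider form that also takes T first and A last. The wider form was added after the strict form had matched no member window and the printed sequences had been read. The windows are Mylk4 at chr13:32783965-32784164 on the minus strand, Pgam2 at chr11:5803797-5803996 on the minus strand, Apobec2 at chr17:48432729-48432928 on the minus strand and Tnnc2 at chr2:164779735-164779934 on the minus strand.
Mylk4: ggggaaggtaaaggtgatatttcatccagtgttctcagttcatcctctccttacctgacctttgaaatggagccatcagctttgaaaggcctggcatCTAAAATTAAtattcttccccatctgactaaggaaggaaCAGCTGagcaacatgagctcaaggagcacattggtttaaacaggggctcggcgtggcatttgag
Pgam2: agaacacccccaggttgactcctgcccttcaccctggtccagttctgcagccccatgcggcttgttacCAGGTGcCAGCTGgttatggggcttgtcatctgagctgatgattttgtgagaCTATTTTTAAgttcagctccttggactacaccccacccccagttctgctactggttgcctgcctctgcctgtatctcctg
Apobec2: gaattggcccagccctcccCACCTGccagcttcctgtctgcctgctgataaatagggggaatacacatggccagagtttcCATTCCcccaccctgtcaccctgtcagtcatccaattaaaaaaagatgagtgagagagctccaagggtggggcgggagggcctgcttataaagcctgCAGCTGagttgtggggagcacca
Tnnc2: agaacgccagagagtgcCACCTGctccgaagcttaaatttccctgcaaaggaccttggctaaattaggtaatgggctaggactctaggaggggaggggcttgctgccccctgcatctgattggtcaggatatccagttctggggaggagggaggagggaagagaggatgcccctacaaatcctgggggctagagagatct
These 4 were chosen after the matches were seen. In Mylk4 a wider MEF2 box starts 103 and CAGCTG 64 bases before the transcript start. Pgam2 holds CAGGTG at 132 and CAGCTG at 125 bases before it, separated by a single base, and a wider MEF2 box at 80. Apobec2 has CAGGTG, read on the other strand as CACCTG, at 181, CATTCC at 120 and CAGCTG at 23 bases before its start. Tnnc2 has CAGGTG, also read as CACCTG, at 183 bases before its start.

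The 12 RefSeq windows of the 10 members, 3 of them of Asb5, each reach from 250 bases before a start to 50 after it. CAGCTG was present in 5 of the 12, in Cox8b, Asb5, Pgam2, Mylk4 and Apobec2. The same letters were present in 15.6% of 21263 windows of protein-coding genes. CAGGTG was present in 3 member windows (Tnnc2, Pgam2 and Apobec2) and in 19.7% of all windows, and CATTCC in 3 (Tpm1, Pgam2 and Apobec2) and in 13.6%. A CArG box was present in 1 window, of Asb5, and in 1.52% of all windows, the strict MEF2 box in 0 member windows and 0.489% of all, and the wider MEF2 box in 3 (Asb5, Pgam2 and Mylk4) and 2.74%. The last count comes from a form chosen with the windows in view. A match is a run of letters, and its binding was not measured.

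Among the contractile and fibre-structure genes, the calcium sensor Tnnc2 (probe set 17394267, 20 probes, chromosome 2) encodes fast troponin C. Its KO arrays read 9.59, 9.39, 9.98 and 10.23 in log2 units, replicates 1 to 4, and its WT arrays read 10.34, 10.48, 10.66 and 10.55. All KO arrays lay below all WT arrays, with KO replicates 1 and 2 lowest. KO averaged 9.80 ± 0.37 and WT 10.51 ± 0.13 (each SD, n = 4), a difference of -0.71 (SE 0.18), which puts KO at 61.2% of WT.

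Tpm1 (probe set 17528430, 29 probes, chromosome 9) encodes alpha tropomyosin, the rod that covers the myosin sites of actin. Its KO arrays read 9.24, 9.26, 9.54 and 9.79, and its WT arrays, 10.08, 10.19, 10.10 and 10.14, had the smallest spread of any member (SD 0.05). The groups did not overlap, and the difference was -0.67 (SE 0.14). The probe set does not tell muscle from non-muscle forms of tropomyosin in these files.

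Smpx (probe set 17539110, 26 probes, chromosome X) encodes a small protein of the muscle cytoskeleton. Readings were 6.94, 6.66, 7.13 and 7.57 in KO and 7.93, 8.10, 8.13 and 8.02 in WT. KO varied more than WT (SD 0.38 and 0.09), and even its highest array stayed below WT. KO stood at 50.9% of WT, a difference of -0.97 (SE 0.18).

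Mylk4 (probe set 17291674, 25 probes, chromosome 13), a member of the myosin light chain kinase family, had the largest difference of the 10 genes. KO arrays read 5.31, 5.43, 6.22 and 6.62 and WT arrays 6.80, 7.89, 8.36 and 7.35. The groups were separated by 0.17 log2 units, between KO replicate 4 and WT replicate 1. The difference was -1.70 (SE 0.38), or 30.7% of WT, and it ranked 8 by size among the 770 lower genes. Without WT replicate 1 it was -1.97.

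Of the genes of energy supply, Cox7a1 (probe set 17476288, 23 probes, chromosome 7) encodes the muscle and heart form of a subunit of cytochrome c oxidase, the last enzyme of the respiratory chain. Its KO arrays read 8.15, 7.77, 8.21 and 8.58 and its WT arrays 9.09, 9.41, 9.55 and 9.25. This was the widest gap among the members, 0.50 log2 units between the highest KO and the lowest WT array. The difference was -1.15 (SE 0.18), or 45.2% of WT.

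Cox8b (probe set 17497704, 23 probes, chromosome 7), another muscle-type subunit of the same enzyme, read 8.25, 8.24, 8.78 and 8.75 in KO and 9.08, 9.14, 9.59 and 9.44 in WT. KO replicates 1 and 2 were nearly equal and lay below replicates 3 and 4. The difference was -0.81 (SE 0.18), and the groups did not overlap.

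Pgam2 (probe set 17260192, 19 probes, chromosome 11) encodes the muscle form of the glycolytic enzyme phosphoglycerate mutase. It read 6.22, 6.00, 6.46 and 6.57 in KO and 6.67, 7.30, 7.26 and 7.16 in WT. WT replicate 1 lay 0.09 log2 units above the highest KO array, and the other WT arrays were well above it. The difference was -0.78 (SE 0.18) with WT replicate 1 and -0.93 without it.

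Among regulators, Mstn (probe set 17212813, 18 probes, chromosome 1) encodes myostatin, a secreted member of the TGF-beta family that restrains muscle growth. Its KO arrays read 5.71, 6.26, 6.65 and 7.39 and its WT arrays 7.11, 8.04, 8.36 and 7.67. Mstn was the only member whose groups overlapped, since KO replicate 4 lay above WT replicate 1. The difference was -1.29 (SE 0.37), or 40.8% of WT. It was -1.52 without WT replicate 1 and -1.59 without KO replicate 4.

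Asb5 (probe set 17501170, 19 probes, chromosome 8) belongs to the SOCS box proteins, which select targets for ubiquitin ligases. It read 7.65, 7.21, 7.82 and 7.82 in KO and 8.08, 8.04, 8.38 and 8.42 in WT, without overlap. Its difference, -0.61 (SE 0.16), was the smallest of the 10. KO replicate 2 was its lowest array.

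Apobec2 (probe set 17345797, 21 probes, chromosome 17) is a muscle-enriched relative of the cytidine deaminases that edit nucleic acids. KO arrays read 8.62, 8.54, 9.12 and 9.54 and WT arrays 9.61, 9.56, 9.79 and 9.94, which left 0.02 log2 units between the groups. The difference was -0.77 (SE 0.22). Cdsn is on chromosome 17 too, and for Apobec2 an effect of Cdsn loss and one of linked alleles that came with the floxed gene cannot be told apart.

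**Figure D1:**
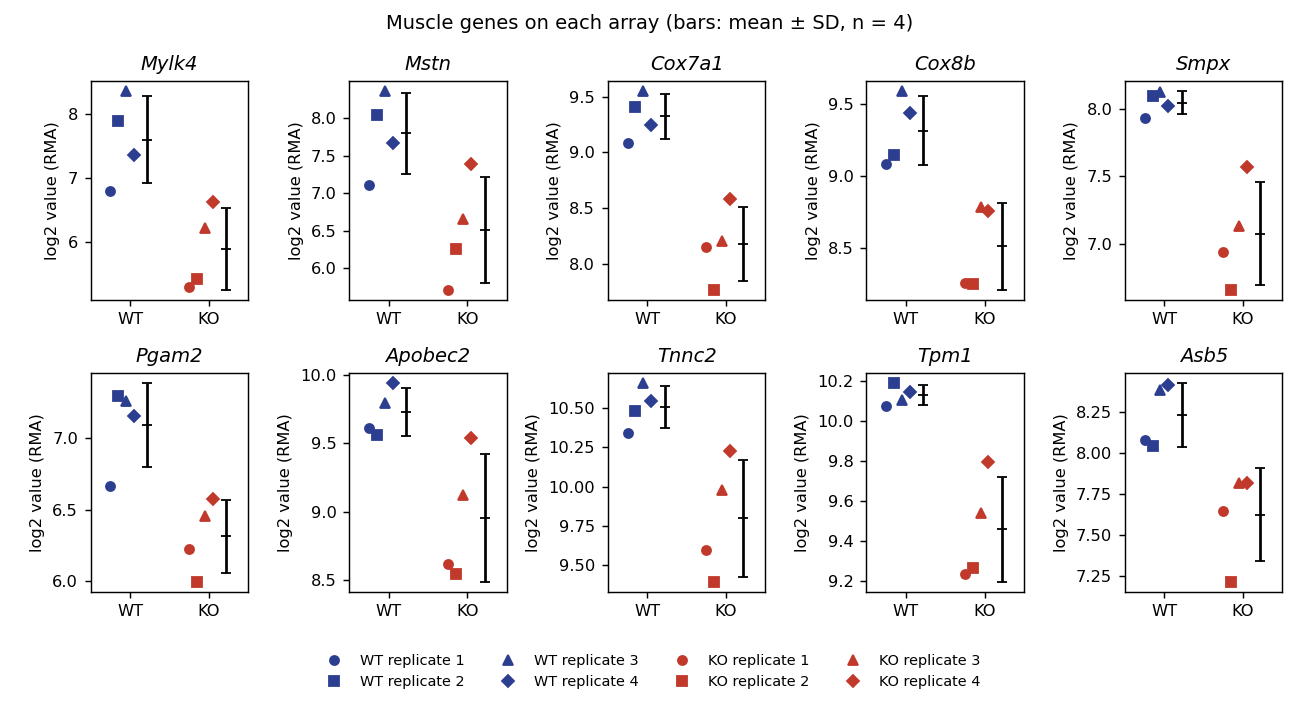
Log2 value (y axis, a separate range in each panel) of the 10 muscle genes on the 4 WT and 4 KO arrays, with symbols for replicates 1 to 4 and a bar for mean ± SD. KO lies below WT in every panel except that of Mstn, where KO replicate 4 at 7.39 exceeds WT replicate 1 at 7.11.

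For 9 of the 10 members every KO value lay below every WT value, as it did in 5.53% of all 33793 probe sets and in 745 of the 770 lower genes of the table. All 10 met the criteria of the table by the rule that chose them, as did 2.47% of all probe sets in the lower direction. The median difference of the 10 was -0.79, against 0.09 over all probe sets and -0.70 over the lower genes of the table. In the table the members spread from position 8 by size of fall (Mylk4) over 32 (Mstn), 49 (Cox7a1) and 113 (Smpx) to 548 (Asb5). All 10 were measured by a single probe set in the table, of cross-hybridisation class 1.

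With single arrays left out, the differences stayed between -1.45 and -1.97 for Mylk4, -1.03 and -1.59 for Mstn, -1.01 and -1.28 for Cox7a1, and -0.47 and -0.67 for Asb5. The other 6 lay within -0.57 and -1.14. Quantile normalization made each of the 10 differences larger, with a median of -0.94, and moved the median over all probe sets from 0.09 to -0.02.

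**Figure D2:**
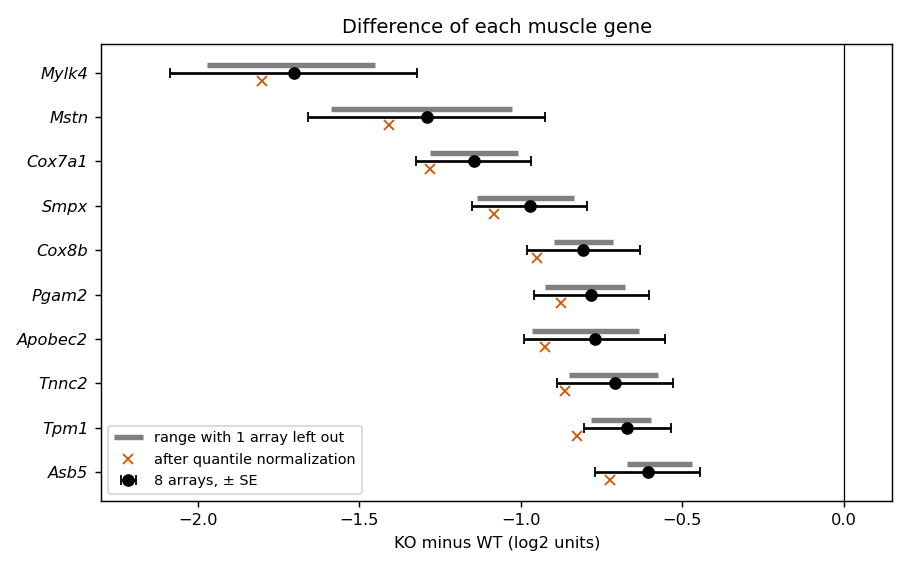
KO minus WT in log2 units (x axis) for each muscle gene, with points and bars for the 8 arrays ± SE, grey bars for the range with 1 array left out and crosses for quantile-normalized values. All marks lie below 0, from Mylk4 at -1.70 to Asb5 at -0.61.

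The rule used the difference between the groups, not the differences among mice of the same genotype. Among the KO arrays the 10 genes varied together, and among the WT arrays they did so less closely and not for every pair. KO replicate 4 was the highest KO array for 8 of the 10 genes and KO replicate 3 for the other 2, while KO replicate 2 was the lowest for 7 and KO replicate 1 for 3. In WT, replicate 1 was the lowest for 8 genes and replicate 2 for 2, and replicate 3 was the highest for 6. Averaged over the 10 genes, KO replicates 1 to 4 deviated from their group mean by -0.26, -0.35, 0.16 and 0.46 log2 units, and WT replicates 1 to 4 by -0.30, 0.04, 0.24 and 0.02.

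For each pair of members, Pearson's r was computed over the deviations of the 8 arrays from their own group mean, as a description. All 45 pairs were above 0, with a median r of 0.78, from 0.43 (Mstn with Asb5) upwards to 0.96. Over the 288420 pairs of the other 760 lower genes of the table the median was 0.00, and over pairs of the 2254 higher genes it was 0.09. The sets were not matched for intensity. All 10 members had a mean above the median over all probe sets, and the part of intensity in this contrast was not tested. Tnnc2 followed the mean of the other 9 members most closely (r = 0.96) and Asb5 least (r = 0.70). Deviations of 8 arrays in 2 groups leave few independent values, and all genes of an array share its RNA, hybridisation and scaling. Over the KO arrays alone the median r was 0.91, with all 45 pairs above 0. Over the WT arrays alone it was 0.65, with 42 of 45 above 0 and a lowest r of -0.16 (Tpm1 with Asb5). The other genes of the table were compared over all 8 arrays only. The order of the arrays resembles that of the first principal component, on which KO replicates 1 and 2 also lay lowest in KO and WT replicate 1 lowest in WT; its part in the shared variation was not tested.

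**Figure D3:**
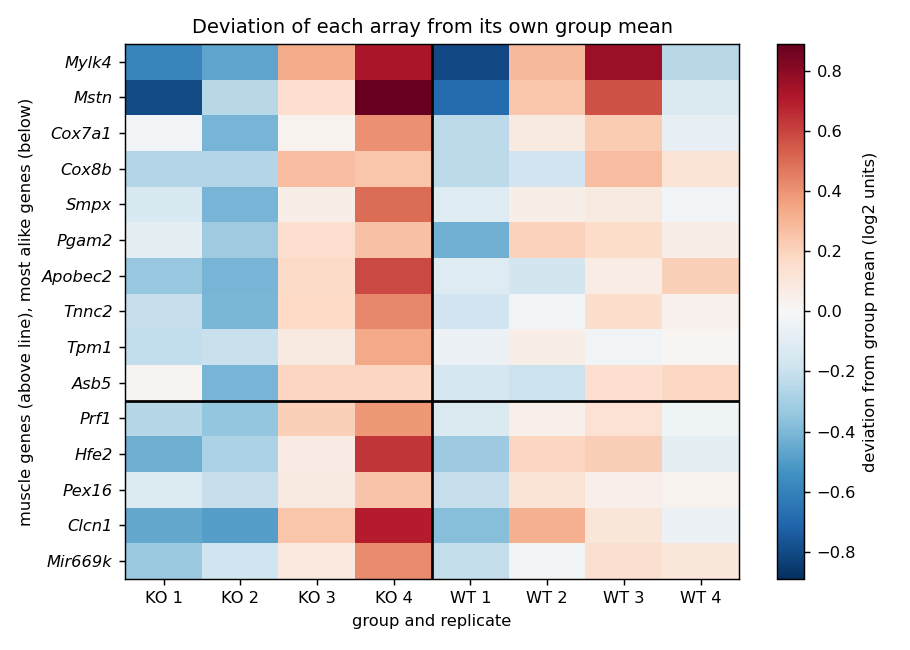
Deviation in log2 units (colour) of each array (columns, KO replicates 1 to 4 and WT replicates 1 to 4) from its own group mean, for the 10 muscle genes above the horizontal line and the 5 most alike genes below it. KO replicate 4 is above its group mean and KO replicate 2 and WT replicate 1 are below theirs in every row.

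**Figure D4:**
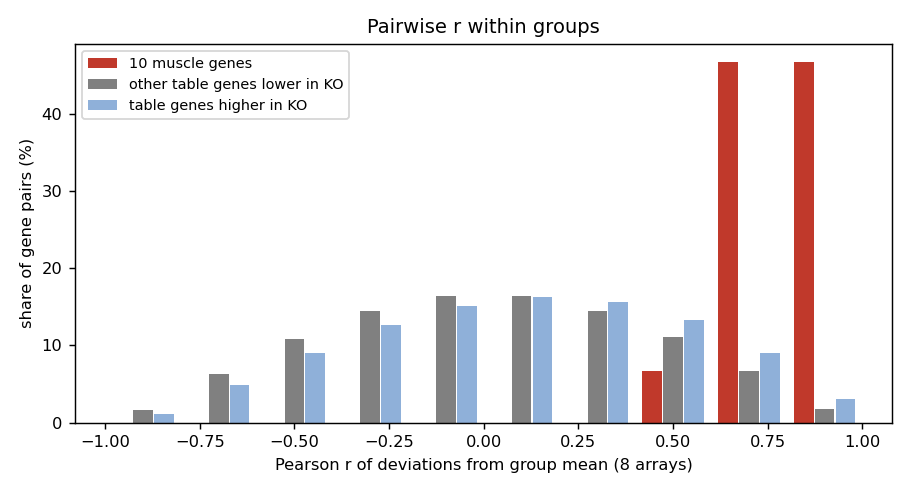
Share of gene pairs (y axis, percent) by Pearson r of the deviations from the group mean over 8 arrays (x axis, bins of width 0.2), for the 10 muscle genes, the other lower genes of the table and the higher genes of the table. The 45 muscle gene pairs all lie above 0.4, while the other sets spread over the whole axis. The sets were not matched for intensity.

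Of 3014 other genes of the table, the 5 whose deviations were most like the mean of the members were Prf1, Hfe2, Pex16, Clcn1 and Mir669k, with Pearson's r of 0.94 to 0.96 and Spearman's rho of 0.83 to 0.95 over 8 arrays. Without KO replicates 2 and 4, the arrays with the most extreme deviations, r was 0.86 to 0.93 for the same 5 genes. These are the highest of 3014 values over 8 arrays, so r of this size can come from selection alone. Whether any of the 5 truly varies with the members was not tested. The closest was the perforin gene Prf1, which encodes the pore protein of killer lymphocytes (r = 0.96). Prf1 read 6.05, 5.95, 6.51 and 6.68 in KO and 6.91, 7.08, 7.17 and 7.00 in WT, lower in all KO arrays, with a difference of -0.74 (SE 0.17, limma adjusted p = 0.0244).

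Hfe2, the hemojuvelin gene, whose product acts in iron control and is made in skeletal muscle and liver, read 7.29, 7.45, 7.80 and 8.37 in KO and 8.27, 8.79, 8.81 and 8.51 in WT. Its KO replicate 4 rose above WT replicate 1, as for Mstn, and its difference was -0.87 (SE 0.23, limma adjusted p = 0.0403). Clcn1, the chloride channel that stabilises the membrane of muscle fibres, showed the same overlap of those arrays, with 5.07, 5.03, 5.78 and 6.22 in KO and 6.15, 6.85, 6.64 and 6.48 in WT. Its difference was -1.01 (SE 0.27, limma adjusted p = 0.0421). Pex16, a peroxisome assembly gene, and Mir669k, a microRNA gene, had like deviations within the groups but were higher in KO, by 0.84 (SE 0.13, limma adjusted p = 0.00650) and 0.84 (SE 0.17, limma adjusted p = 0.0159). The probe set of Mir669k is of cross-hybridisation class 3 and read 1.63 to 3.10, below the array medians of 5.43 to 5.59, and it was not tested where dim probe sets were left out.

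Further muscle genes were taken from 7 lists of muscle function, which hold 149 genes besides the members. Of these, 8 were lower and 2 higher in KO in the fit over all probe sets, and 139 were not in the table, either because they missed its criteria or because no probe set of theirs was tested. The 8 are 5.37% of the 149 genes. Names come from the table alone, so the nearest share is the 2.47% of all probe sets called lower by at least 0.5 log2 units. At any size, 3.19% of all probe sets were called lower and 9.91% higher. The first share is of genes and the others are of probe sets, so they are not strictly alike. The lists were also chosen with earlier results of these data known, so the share is no independent support. Of 45 sarcomere genes, 3 fell and 42 were not in the table. Actc1, cardiac alpha actin, read 5.34, 4.98, 5.86 and 5.88 in KO and 6.27, 6.65, 6.28 and 6.11 in WT, a difference of -0.81 (SE 0.21, limma adjusted p = 0.0380). Myl3, the slow and ventricular myosin light chain, read 5.15, 5.15, 5.41 and 5.21 in KO and 5.93, 5.92, 6.10 and 5.92 in WT. It had the widest gap of the 8 between groups, 0.51, with a difference of -0.74 (SE 0.10, limma adjusted p = 0.00442). Myoz3, a Z-disc protein gene, differed by -0.64 (SE 0.16).

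Of 20 excitation and calcium genes, Clcn1 was the only one in the table. Among 20 energy genes besides the members, Fbp2, the muscle fructose bisphosphatase gene, fell by 0.56 log2 units (SE 0.15). Hk2, a hexokinase gene of the same list, rose by 0.53 (SE 0.13). The lineage list had Eya1 and Eya4, transcriptional coactivators of homeobox proteins, at -0.54 and -0.51, and the other 16 of its 18 genes, Myod1, Myog and Pax7 among them, were not in the table. Asb10, a SOCS box gene of the same family as Asb5, fell by 0.53 (SE 0.11) and was the only one of 18 other ubiquitin genes in the table. Of 18 other genes of the myostatin pathway 17 were not in the table, and Gdf11, the closest relative of Mstn, rose by 0.51 (SE 0.14, limma adjusted p = 0.0389). None of 10 neuromuscular junction genes was in the table. Of 23 relatives of the members' families, Cox8c, a further form of the Cox8 subunit, was higher by 0.57 (SE 0.10, limma adjusted p = 0.0110), and 22 were not in the table. Cox8c read 3.21 to 4.06, below the array medians of 5.43 to 5.59. Neither Cox8c nor Gdf11 was tested where dim probe sets were left out.

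The number of these muscle genes called lower was 8 with all arrays and 1 to 6 with an array left out, in fits on fewer arrays in which the probe sets called lower fell from 1078 to between 582 and 837. Only genes named in the table from all 8 arrays could be counted, so the muscle number could only fall. Over all probe sets, calls could also be gained, so the falls of the muscle number and of the probe sets are not alike. Leaving out KO replicate 1 gave 3, KO replicate 2 gave 1, KO replicate 3 gave 4 and KO replicate 4 gave 5. Leaving out WT replicate 1 gave 6, WT replicate 2 gave 2, WT replicate 3 gave 1 and WT replicate 4 gave 5. Myl3 was called in all 8 of these fits, whereas Fbp2 lost its call in 7, Actc1 and Clcn1 in 6, Myoz3, Eya1 and Eya4 in 5 and Asb10 in 3, with adjusted p of at most 0.106. The differences kept their direction, from -0.63 to -0.93 for Actc1, -0.48 to -0.70 for Fbp2 and -0.45 to -0.56 for Eya4. Hk2 and Gdf11 lost it in 6 each and also after quantile normalization, and Prf1 lost it in 5 and Hfe2 in 6.

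**Figure D5:**
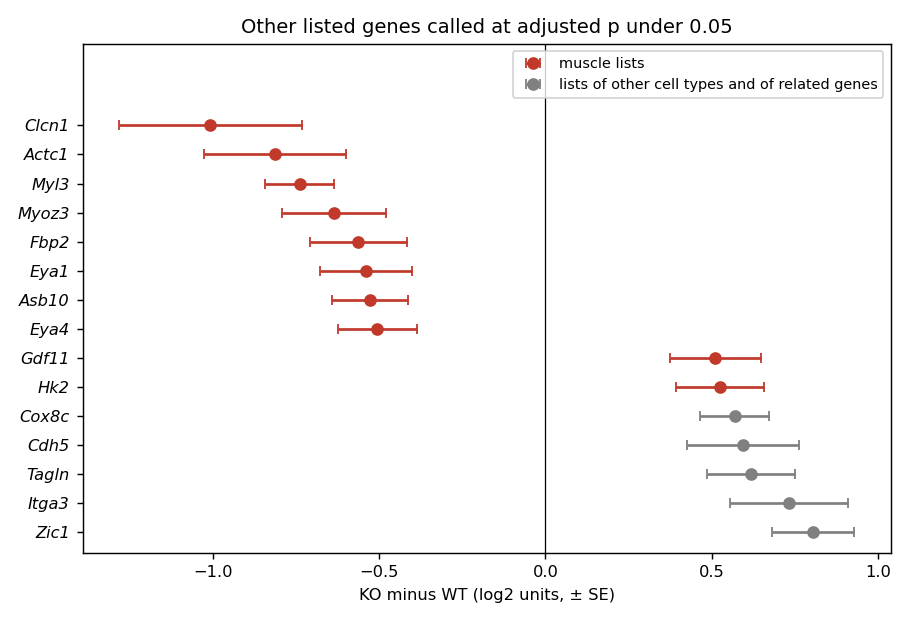
KO minus WT in log2 units ± SE (x axis) for the 15 listed genes besides the members that passed adjusted p under 0.05, with genes of the muscle lists in red and genes of other lists in grey. In the muscle lists 8 genes lie below 0 and 2, Gdf11 and Hk2, above it.

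Markers of other cells of the ear were also compared. Of 5 smooth muscle markers Tagln, an actin-binding protein, was higher by 0.62 (SE 0.13, limma adjusted p = 0.0191), and Acta2, Myh11, Cnn1 and Smtn were not in the table. Of 4 endothelial markers Cdh5 was higher by 0.60 (SE 0.17, limma adjusted p = 0.0486), a call lost in 7 of 8 fits with an array left out and under 6 of 7 other settings, with adjusted p of up to 0.134 (after quantile normalization). The lists of 12 fat, 11 cartilage and 9 fibroblast genes had 0 genes in the table. The brown fat list holds 2 of the members, lower by the rule that chose them, and 10 other genes. Of those 10, Zic1 was higher by 0.80 (SE 0.12) and 9 were not in the table. Zic1 was dim, at 4.3 to 5.5 beside array medians of 5.43 to 5.59, and was not tested where dim probe sets were left out. Itga3, an integrin of basal keratinocytes, rose by 0.73 (SE 0.18), and the remaining 7 of the 8 genes on its list were not in the table. The call of Itga3 was lost in 4 of 8 fits with an array left out and under 4 of 7 other settings, among them quantile normalization (limma adjusted p = 0.0697) and median centring (limma adjusted p = 0.0568). Summed levels of these marker lists were not computed, since most markers carry no name in the files, and their part in the muscle result was not tested.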

How the data were processed

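Ear skin RNA of 4 KO and 4 WT mice (9 µg each, from tissue kept for up to 4 weeks in preservative) was labelled with biotin, per the labels' protocols, and hybridised to Affymetrix Gene Mouse 2.0 ST arrays, per the file headers. The authors deposited log2 values of 33793 probe sets, which per the submitters' processing notes are RMA output; its version and options are not given in the sources used here, nor is the genome build. The authors also deposited a table for 3411 probe sets with log2 differences, a linear fold ratio, p-values, adjusted p-values, a cross-hybridisation class (another number per probe set) and gene symbols, the only source of names. RMA can compress differences of dim probe sets.

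Values were used as deposited. Limma 3.58.1 in R 4.3.3 fitted KO minus WT over all probe sets, using empirical Bayes moderation. Tests were two-sided, with Benjamini-Hochberg adjustment over all of them, and called at adjusted p under 0.05; the SE given for a difference is the moderated one. It matched the differences of the authors' table to within 5.9e-09. The script was tested on simulated data. A gene's highest-mean probe set was used. Nothing in the labels names a batch. The number of arrays limits the precision.

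Members and lists were chosen with earlier results of these data known. Named genes are the members, up to 4 called genes of each of 15 lists, and the 5 genes most alike in deviation from the group mean; a result that this rule would name is not reported here. The genes named in the closing observations fall outside this rule unless they are members or list genes, and were chosen after their values were seen. List genes were matched by symbol or RefSeq synonym (GRCm38.p6). Python 3.11.15 with pandas 2.3.3, numpy 2.4.6, scipy 1.17.1 and matplotlib 3.10.9 did the rest. Alternatives were quantile normalization, median centring, leaving out dim probe sets, other moderation, array weights, a replicate block and leaving out each array.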

Additional observations from a re-analysis of the deposited data

Results flagged for a closer look

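In 58 groups of 4 arrays examined for an array far from the others, 1 was found, while chance marks about 1 group in 20. It was Myl3 in WT replicate 3, at 6.10, where the remaining WT arrays spanned 5.92 to 5.93. All 4 of these values lay above the KO arrays, and leaving WT replicate 3 out did not end the call of Myl3.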

How the results depend on the processing

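The 9 members without overlap between groups were 9 or 10 under every scaling and with any array left out, and the difference of each of the 10 members kept its sign in all of these fits. The number of members that met adjusted p under 0.05 was 10 with all arrays, as fixed by the rule that chose them. It was 5 with dim probe sets left out, 3 without moderation, and 3 to 10 with an array left out. Leaving out KO replicate 2 or WT replicate 3 gave 3, and KO replicate 1 gave 4 as did WT replicates 2 and 4. Leaving out KO replicate 3 or WT replicate 1 gave 8, and KO replicate 4 gave 10. These counts describe fits to the same data that chose the members and are no test of them. The 8 other muscle genes called lower became 2 with dim probe sets left out, where Asb10 was no longer tested, 3 without moderation, and 1 to 6 with an array left out. This number could only fall, since only genes named in the table were counted. Probe sets called lower numbered 1078 as deposited, 1751 after quantile normalization, 797 without moderation and 582 to 837 with an array left out. They numbered 123 with dim probe sets left out, where fewer probe sets were tested. The lower share of all calls was 24.3% as deposited, 50.9% after quantile normalization and 46.8% after median centring. The causes were not tested. As an addition made after seeing the data, the median r over the 45 pairs was 0.78 after quantile normalization, 0.80 after median centring and 0.71 to 0.83 with an array left out, and it was 0.91 in KO and 0.65 in WT. Deviations of same-numbered mice correlated at 0.55, -0.06, 0.28 and 0.30; KO replicates 1, 3 and 4 were most like the WT array of their number and KO replicate 2 was most like WT replicate 1, which is a hint from the data only, since not every pair was above 0.1. With a replicate block Actc1 (limma adjusted p = 0.0613) and Myoz3 (0.0515) lost their calls, and 6 of the 8 muscle genes, all 10 members and 1233 probe sets were called lower, and in all 10 members each KO array lay below the WT array of its number.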

Other observations

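The authors' deposited table annotates 6 of its genes with a pathway of striated muscle contraction, and all 6 were lower in KO: Tnnc2, Tpm1, Smpx, Actc1, Myl3 and LOC102633540. Its electron transport chain genes went both ways, 4 lower, among them Cox7a1, Cox8b and Ndufab1, and 3 higher, among them Cycs, the gene of cytochrome c. Of 7 glycolysis genes, Pgam2 and Fbp2 were lower, and 5 were higher, namely Eno1b, Pkm, Pgk1, Hk2 and Gm5523. These counts cover only genes that had already met the criteria of the table, where 770 of 3024 genes with a symbol were lower. Tnnc2, Tpm1, Smpx, Cox7a1, Cox8b and Pgam2 are members, whose lower direction chose them. Actc1, Myl3, Fbp2 and Hk2 were already counted among the list genes above. The pathway counts are therefore no separate support.

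Of the table's genes outside the lists, 3 were chosen after their values were seen, and their values are given with no test. Ky, which encodes a muscle protein whose loss causes kyphoscoliosis in mice, read 4.79 to 5.29 in KO and 5.73 to 6.36 in WT, a difference of -0.97. Nexn, the nexilin gene of the Z-disc, differed by -0.59, and its groups overlapped between KO replicate 4 and WT replicate 1, the same arrays as for Mstn, Hfe2 and Clcn1. The muscle microRNA gene Mir133a-2 read 2.86 to 3.51 in KO and 3.61 to 4.61 in WT, a difference of -0.99. Its values lay below the array medians of 5.43 to 5.59.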
